A study of Mus musculus with 37 samples.

Results

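The genes described here are 50 genes of the lysosome: 11 proteases, 15 glycosidases and sulfatases, 8 genes for lipid hydrolysis, lipid transfer and luminal cofactors, 7 membrane proteins, 6 genes of the V-ATPase proton pump and the 3 MiT/TFE transcription factors Tfeb, Tfe3 and Mitf. They were chosen by name, from their known roles, with earlier results of these data known. Each matched 1 row of the 24016 genes in the expression table. All 50 were among the 10030 genes analysed, which had a mean of at least 100 scaled reads over the 8 libraries. The study asked how loss of the clock gene Arntl, which encodes Bmal1, alters the response of macrophages to activation of Toll-like receptor 4 (TLR4). PolyA RNA was sequenced from bone marrow-derived macrophages (BMDMs) of WT and Arntl-/- mice, with 1 library for each of 8 conditions.

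The WT groups were BMDMs of C57BL/6J mice at 0, 6, 24 and 48 h after addition of KLA (Kdo2-lipid A), the defined part of lipopolysaccharide that TLR4 binds. The Arntl-/- groups, labelled BmalKO, had the same strain label and were taken at the same 4 times. All mice were male and 6 to 9 weeks old, and the marrow cells of every group were cultured for 6 days with M-CSF, the growth factor from which macrophages arise in culture. The paper calls the mice Arntl-/- on a C57BL/6 background and names no cell type or time to which the deletion was limited. The 0 h cultures were the untreated controls of each genotype. The number of mice behind a library was not given in the sources used here. The WT mice are described both as littermates and as C57BL/6J animals from a supplier. With 1 library per condition no difference has a replicate check, and the values below describe these 8 libraries.

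Lysosomes are the acidic compartments in which macrophages break down what they engulf and what autophagy delivers. The V-ATPase pumps protons into the lumen, cathepsins and other hydrolases work at that low pH, and membrane proteins such as Lamp1 and Lamp2 shield and transport. TFEB, TFE3 and MITF bind CLEAR elements, short palindromes around CACGTG in the promoters of many lysosomal genes. CACGTG is also the core of the E-box that the Bmal1 and Clock pair binds.

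Because both kinds of factor read the same 6 letters, the promoters of the members were searched for them. RefSeq promoters, from 250 bases before to 50 bases after the start site in the build GRCm38.p6, were matched by symbol for 42 of the 50 members, and 8 had none in the table (Atp6v0d2, Npc1, Asah1, Galns, Atp6v1b2, Atp6v1h, Ctsb and Ctsh). The motif CACGTG, which reads the same on both strands, was present in 15 of the 42 (35.7%), against 12.4% of 7668 analysed genes and 8.09% of all 27025 genes with a promoter. The longer palindrome TCACGTGA, which contains it, was present in 7 members (16.7%), against 2.43% of the analysed genes and 1.12% of all genes. The 10-base CLEAR palindrome, which contains both, was in the promoter of Cln3 alone (2.38% of the 42 members, 0.913% of the analysed genes and 0.37% of all genes). A match is a description of the letters and not a site shown to be bound.

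For each of the 7 members with TCACGTGA, 1 stretch is shown, because they share a motif close to a CLEAR element. Ctsa and Gla have 2 matches each in their promoter sequences, of which 1 is shown. Each line gives 30 bases in the direction of transcription, with the 8-base motif in capitals.
Cln3, chr7:126583340-126583369, minus strand, motif 122 bases before the start site: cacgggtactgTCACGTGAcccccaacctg
Ctsd, chr7:142387908-142387937, minus strand, 99 bases before: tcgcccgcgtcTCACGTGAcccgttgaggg
Mcoln1, chr8:3500462-3500491, plus strand, 46 bases before: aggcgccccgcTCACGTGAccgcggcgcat
Ctsa, chr2:164833749-164833778, plus strand, 13 bases before: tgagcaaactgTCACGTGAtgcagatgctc
Gla, chrX:134601215-134601244, minus strand, 228 bases before: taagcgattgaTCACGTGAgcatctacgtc
Atp6v1a, chr16:44139373-44139402, minus strand, 132 bases before: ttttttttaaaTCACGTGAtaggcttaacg
Atp6v0d1, chr8:105566050-105566079, minus strand, 4 bases before: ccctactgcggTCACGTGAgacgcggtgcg

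Stretches with CACGTG alone are shown for members whose values are described below, with the 6 bases in capitals.
Sgsh, chr11:119355522-119355551, minus strand, 29 bases before: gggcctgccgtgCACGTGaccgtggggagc
Arsa, chr15:89477423-89477452, minus strand, 16 bases before: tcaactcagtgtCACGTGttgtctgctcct
Lgmn, chr12:102439124-102439153, minus strand, 49 bases before: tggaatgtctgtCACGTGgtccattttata
Gaa, chr11:119267811-119267840, plus strand, 140 bases before: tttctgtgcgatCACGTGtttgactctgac
Glb1, chr9:114401018-114401047, plus strand, 48 bases before: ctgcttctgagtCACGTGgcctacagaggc

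The 250 bases before the start site are shown for Ctsd, the member with the highest level, and for Lamp1, whose promoter held 4 copies of CACGTG, the highest number among the 15 members. CACGTG is in capitals.
Ctsd, chr7:142387828-142388077, minus strand: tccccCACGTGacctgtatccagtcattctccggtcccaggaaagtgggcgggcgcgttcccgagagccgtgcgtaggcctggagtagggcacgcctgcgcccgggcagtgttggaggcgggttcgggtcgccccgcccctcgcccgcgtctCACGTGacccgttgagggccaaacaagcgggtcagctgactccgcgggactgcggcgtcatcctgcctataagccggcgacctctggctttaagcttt
Lamp1, chr8:13158911-13159160, plus strand: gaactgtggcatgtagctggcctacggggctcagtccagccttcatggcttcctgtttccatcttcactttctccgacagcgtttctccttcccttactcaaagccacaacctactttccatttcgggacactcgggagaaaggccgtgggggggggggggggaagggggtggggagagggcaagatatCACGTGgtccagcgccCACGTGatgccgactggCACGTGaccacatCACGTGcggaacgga

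The libraries held 8587560 to 27036783 reads on genes, and the deepest was WT at 6 h. Values are FPKM per 10000000 reads divided by a size factor for each library (0.918 to 1.13), called scaled FPKM below, and log2 differences were computed after adding 0.1. Reads of Arntl gave 34.3, 32.3, 35.6 and 38.7 scaled FPKM in the WT libraries against 13.9, 11.3, 18.8 and 20.2 in the Arntl-/- libraries, so that the labelled genotypes did not overlap. Part of the Arntl reads thus remained in the Arntl-/- libraries. The table has 1 value for the whole transcript, so reads from the deleted part cannot be told from the rest and the deletion itself is not checked. The 10 macrophage markers, Lyz2, Csf1r, Cd68 and Adgre1 among them, summed to 16315 to 39521 in WT and to 18286 to 35461 in Arntl-/- cells. Markers of other cells were lower: the 8 neutrophil markers measured summed to 528 to 928 in WT and 860 to 1033 in Arntl-/- cells, the 8 stromal markers to 464 to 1167 and 343 to 706, and the 4 markers of T and NK cells to at most 1.59. In bulk RNA, fewer cells of a type and less RNA per cell cannot be told apart.

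Lysosomal genes were among the most highly expressed genes of these macrophages. Of the 50 members, 27 belonged to the top 10% by mean level, the 1003 analysed genes with at least 527 scaled FPKM, and the median member was at 639 against 123 for all genes analysed. The highest was the aspartic protease Ctsd with a mean of 5691, followed by Psap, the precursor of the saposins that present lipids to their hydrolases (4931), Laptm5, a lysosomal membrane protein of blood cells (3365), and the cysteine protease Ctss (3320). Membrane proteins (median 2062) and proteases (median 1619) were the highest groups, lipid genes (868) and the V-ATPase (812) lay between, and glycosidases and sulfatases (298) and the 3 transcription factors (150) were lowest. The lowest single members were Atp6v0d2 (mean 20.0), Ctsk (69.1), Arsb (79.2) and Smpd1 (83.1). These levels are per kilobase of exon. A header setting names a limit of 3 tags at a position, yet in WT at 6 h 16.9 reads fell on each exonic base of Ctsd. The counts thus do not show that limit, and how the setting was applied is not known. Its bearing on the order of the most abundant genes was not tested.

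**Figure D1:**
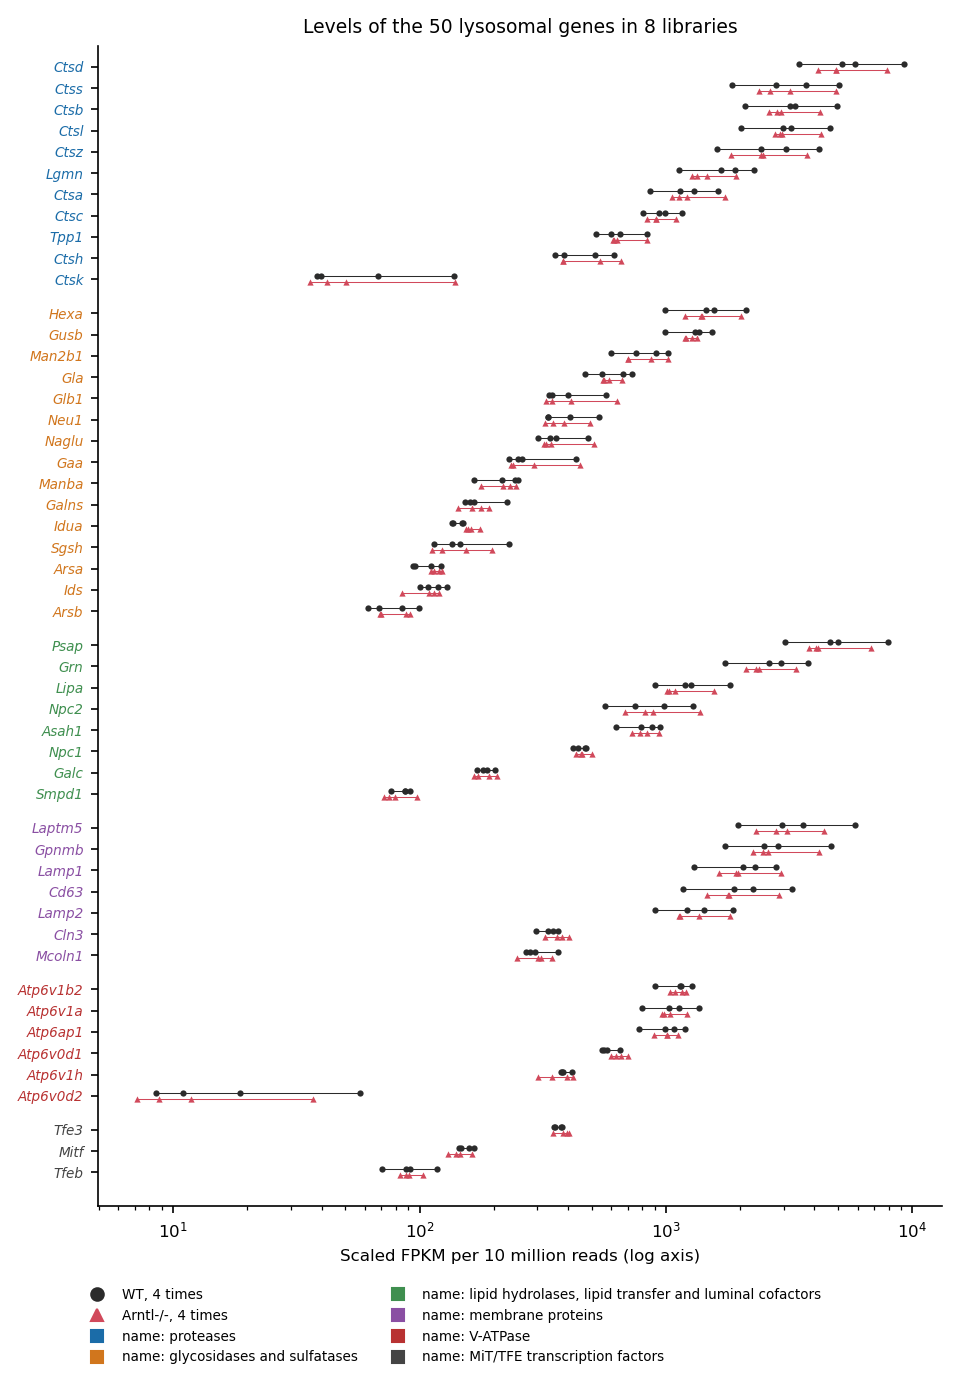
Scaled FPKM (log axis) of each of the 50 lysosomal genes in the 4 WT libraries (circles) and the 4 Arntl-/- libraries (triangles), with names coloured by role and a line from the lowest to the highest library of a genotype. Ctsd lies highest (mean 5691) and Atp6v0d2 lowest (mean 20.0), and the ranges of the genotypes overlap for all genes but Idua.

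To see whether Arntl deletion altered the lysosomal genes as a group, each member was compared between the genotypes at each time. Hardly any member differed at least 1.5-fold. At 0 h, 0 of 50 were higher in Arntl-/- cells and 0 lower, where 2.64% of all genes analysed were higher and 1.58% lower. At 6 h, 2 were higher (Ctsz and Cd63) and 1 lower (Atp6v0d2), beside 1.93% and 1.87% of all genes. At 24 h, 0 were higher and 1 lower (Atp6v0d2), beside 3.09% and 2.19%. At 48 h, 0 were higher and 1 lower (again Atp6v0d2), beside 5.08% and 4.9%. Atp6v0d2 was thus the only member past 1.5-fold at more than 1 time. Without size factors, that is with the values as deposited, 79.7% of all genes past 1.5-fold were on the higher side at 0 h, 13.2% at 6 h and 69.9% at 24 h, in place of 62.6%, 50.8% and 58.5%, and Ctsz and Cd63 no longer passed at 6 h. After a correction for level, described below, none of the 3 calls at 6 h was kept, with log2 ratios of 0.04 for Ctsz, 0.10 for Cd63 and -0.48 for Atp6v0d2, whereas Atp6v0d2 stayed past 1.5-fold at 24 and 48 h (-0.72 and -0.66).

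The median log2 ratio of the 50 members, Arntl-/- to WT, was -0.10, 0.20, -0.11 and -0.07 in order of time from 0 to 48 h. All genes analysed had medians of -0.01, 0.01, 0.00 and -0.02. The top 10% by level, to which most members belong, had medians of -0.18, 0.34, -0.14 and -0.06, so that at 6 h both the members and other abundant genes were higher in Arntl-/- cells. When each member was set against the median of genes of like level, the 10% of genes in the same level class, the median difference was 0.03, -0.01, 0.00 and -0.03. Within the group the ratio followed the level, with Spearman coefficients over the 50 members of -0.69, 0.89, -0.48 and -0.34. All members of a comparison share 1 pair of libraries and their depths. At 6 h, the 27 members of the top 10% were all higher in Arntl-/- cells, by a median of 0.39, whereas 12 of the other 23 members were higher, with a median of 0.02.

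At 0, 6 and 24 h abundant genes read lower in whichever library of the pair was deeper. At 6 h the WT library had 27036783 reads and the Arntl-/- library 15461830. The order was the opposite at 0 h (13080318 and 18166576) and at 24 h (10685710 and 15350455), and the depths were close at 48 h (9191164 and 8587560). For Ctsd, 21353, 32760, 18999 and 23884 reads were behind its WT values and 25084, 24256, 23898 and 19671 behind its Arntl-/- values, a narrower range than that of the depths, and at 6 h in WT cells 16.9 reads fell on each base of its exons. The part of depth and of any limit on tags at a position in the ratios was not tested. With 1 library for each condition, genotype cannot be told apart from depth.

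By role, all 11 proteases were higher in Arntl-/- cells at 6 h (median log2 ratio 0.39), and at 0 and 24 h 10 of 11 were lower (medians -0.17 and -0.21). The 7 membrane proteins had medians of -0.15, 0.50, -0.13 and -0.07 and the 8 lipid genes of -0.13, 0.29, -0.18 and -0.03 at the 4 times. The 15 glycosidases and sulfatases, which have lower levels, had medians of -0.03, 0.07, 0.01 and -0.01. The correction for level turned the directions of the proteases at 0, 6 and 24 h: after it 8, 2 and 8 of the 11 proteases were higher in Arntl-/- cells at these times, with medians of 0.08, -0.08 and 0.07. Over the 50 members, 16, 39, 13 and 17 were higher in Arntl-/- cells in order of time before the correction and 36, 12, 33 and 22 after it, where 47.7%, 52.2%, 49.6% and 47.0% of all genes were higher without it. After it the medians of all genes were 0.0024, -0.011, 0.0045 and -0.0022, and the share of all genes higher was not computed.

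**Figure D2:**
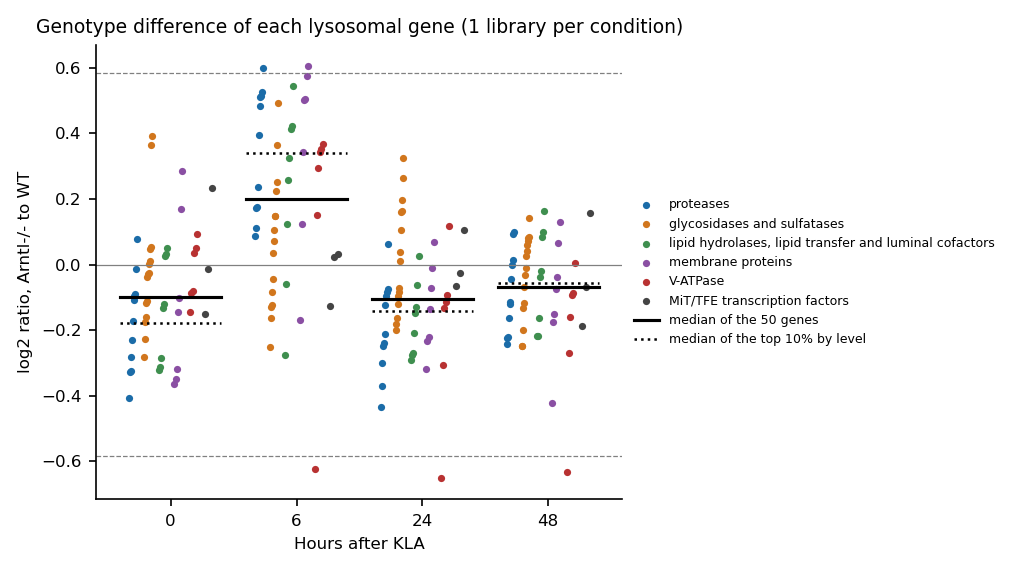
log2 ratio of Arntl-/- to WT (vertical axis) for each of the 50 genes at 0, 6, 24 and 48 h after KLA, coloured by role, 1 library per condition. Solid lines are medians of the 50 genes (0.20 at 6 h), dotted lines medians of the top 10% by level (0.34 at 6 h) and dashed lines 1.5-fold; Atp6v0d2 is the red point below the lower dashed line at 6, 24 and 48 h.

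Atp6v0d2 was the member with the lowest mean ratio over the 4 times (log2 -0.47). It encodes the d2 form of a subunit of the membrane sector of the V-ATPase, known from osteoclasts and some macrophages, and lies on chromosome 4 of mm9 (19803985 to 19849713). In WT cells it stood at 8.51, 11, 18.7 and 57.1 scaled FPKM over the 4 times, against 8.73, 7.10, 11.9 and 36.9 in Arntl-/- cells. The genotypes were level at 0 h, and the Arntl-/- value was lower at each time after KLA, by log2 -0.62, -0.65 and -0.63. The counts behind these values were low, 45 to 190 reads, and the 95% counting intervals of the 3 ratios ran from 0.450 to 0.911, 0.455 to 0.883 and 0.508 to 0.816. They cover counting error only and not the spread between cultures.

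Idua, which removes iduronic acid from heparan and dermatan sulfate, was the only member whose 4 Arntl-/- libraries all lay above its 4 WT libraries, where 0.718% of all genes analysed did so. It was at 137, 150, 135 and 149 in WT cells against 176, 154, 162 and 158 in Arntl-/- cells, with log2 ratios of 0.36, 0.04, 0.26 and 0.08. With the values as deposited the genotypes overlapped, as the size factor was 1.13 for WT at 6 h and 0.947 for Arntl-/- at 48 h. For 0 members did all Arntl-/- libraries lie below all WT libraries, beside 0.558% of all genes. Arsa, the sulfatase that degrades sulfatides, had scaled FPKM of 94.3, 122, 95.9 and 111 in WT and 124, 112, 120 and 115 in Arntl-/- cells. The Arntl-/- value was the higher one at 0 h and 24 h (log2 0.39 and 0.32) and lower at 6 h (-0.13).

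The third member with a high mean ratio was Atp6v0d1, the widely expressed form of the subunit of which Atp6v0d2 is the other form. It was at 560, 552, 576 and 653 in WT and 598, 700, 625 and 655 in Arntl-/- cells, a mean log2 ratio of 0.14 beside the -0.47 of Atp6v0d2. At the low end stood Lgmn, the asparagine-specific protease legumain, and Lipa, the acid lipase that frees cholesterol and fatty acids from esters. Lgmn had 1666, 1126, 1904 and 2267 scaled FPKM in WT and 1332, 1270, 1472 and 1915 in Arntl-/- cells, lower in Arntl-/- at 0, 24 and 48 h (log2 -0.32, -0.37 and -0.24) and higher at 6 h (0.17). Lipa had 1258, 906, 1195 and 1820 in WT and 1006, 1084, 1033 and 1564 in Arntl-/- cells, with log2 ratios of -0.32, 0.26, -0.21 and -0.22. None of these 5 reached 1.5-fold at any time.

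The 3 MiT/TFE factors, which drive transcription of lysosomal genes, differed little between genotypes. Tfeb was at 70.7, 88.3, 91.8 and 118 in WT and 83.2, 90.2, 87.7 and 103 in Arntl-/- cells, so that Arntl-/- cells had the higher value at 0 h (log2 0.23) and the lower one at 48 h (-0.19). Tfe3 was at 350, 375, 377 and 355 in WT and 347, 381, 405 and 396 in Arntl-/- cells. Mitf was at 145, 159, 167 and 147 in WT and 131, 146, 164 and 140 in Arntl-/- cells, lower at all 4 times, with log2 ratios of -0.15, -0.13, -0.03 and -0.07. This speaks of their transcripts and not of their entry into the nucleus, through which TFEB and TFE3 are known to be controlled.

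The early response to KLA was read by comparing 6 h with 0 h within each genotype, and the medians of the genotypes had opposite signs. The 6 h WT library that gave the ratios above enters here too, and the difference was not tested. In WT cells the median log2 change of the members was -0.25. Past 1.5-fold, 0 members were higher and 10 lower, beside 4.55% and 3.2% of all genes analysed. The 10 were Ctsb, Ctsd, Ctss, Ctsz, Psap, Grn, Lamp1, Cd63, Laptm5 and Sgsh. In Arntl-/- cells the median was 0.09, with 0 higher and 1 lower (Sgsh), beside 2.77% and 2.72%. With the values as deposited 0 members were 1.5-fold lower in WT, and of all genes past 1.5-fold 91.9% were higher in WT and 35.0% in Arntl-/- cells, in place of 58.7% and 50.5%. Ctsz, a cysteine protease, was at 1609 after 2432 in WT and at 2436 after 1835 in Arntl-/- cells. Cd63, a membrane protein of late endosomes, was at 1176 after 1880 and at 1788 after 1462.

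This contrast again ran along the level of expression. In WT cells the top 10% of all genes had a median of -0.36 at 6 h, and 15.4% of its genes were at least 1.5-fold lower. Over the 50 members the Spearman coefficient of change and level was -0.85 in WT and 0.51 in Arntl-/- cells, beside -0.33 and 0.31 over all genes analysed. Set against genes of like level, the median member differed by 0.00 in WT and by -0.07 in Arntl-/- cells. After a correction for level, in which a smooth curve of log2 difference on mean level was subtracted from each library, the WT median was 0.05, and of the 10 members only Sgsh remained at least 1.5-fold lower, beside 2.15% of all genes after that correction.

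**Figure D3:**
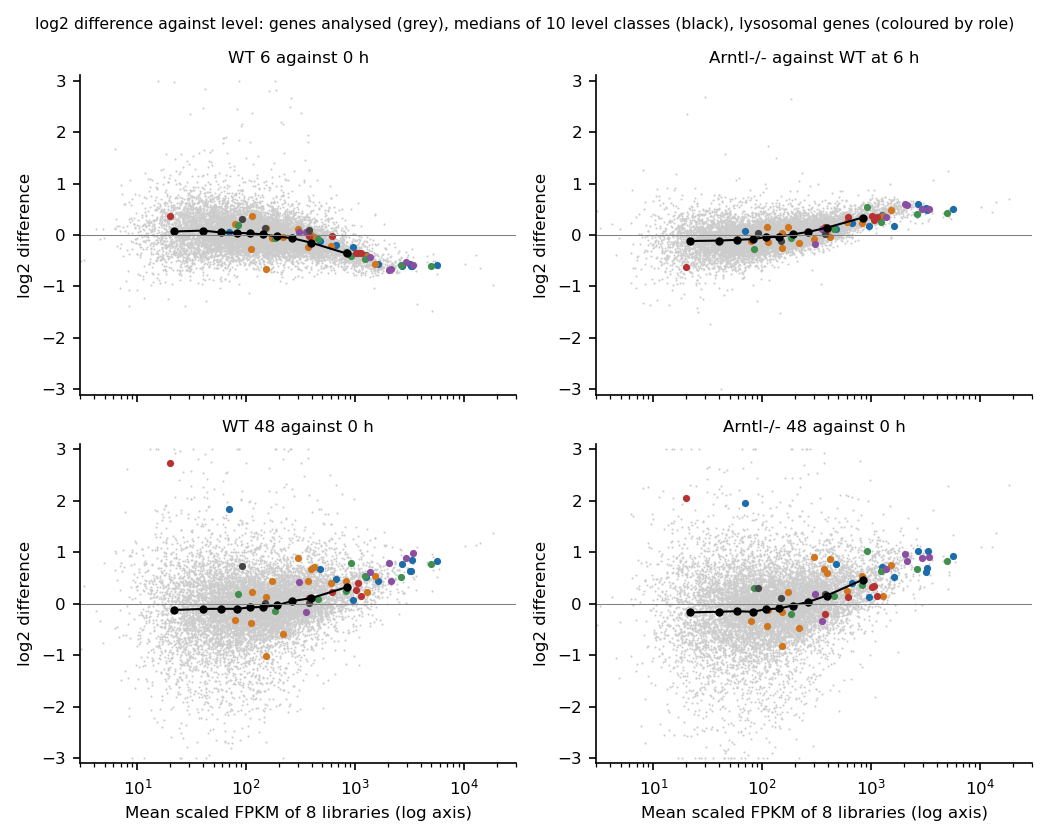
log2 difference (vertical axis, drawn to 3 in either direction) against mean scaled FPKM (log axis) for the 10030 genes analysed (grey) and the 50 lysosomal genes (coloured by role as in the other plots) in 4 comparisons, with the medians of the 10 level classes joined in black. In WT cells at 6 h the members follow the medians down to -0.36 in the top class, and in the Arntl-/- against WT comparison at 6 h they follow them up to 0.34. At 48 h Atp6v0d2 and Ctsk lie far above the medians of their classes.

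Sgsh, the sulfamidase that acts on heparan sulfate, was lower at 6 h in both genotypes and stayed so. It lies on chromosome 11 of mm9 (119204803 to 119216824). Its scaled FPKM was 231, 146, 135 and 114 in WT cells against 197, 123, 155 and 112 in Arntl-/- cells, from 620 to 3080 reads. All 6 libraries after KLA lay below both 0 h libraries. The log2 changes from 0 h to 48 h were -1.01 in WT and -0.82 in Arntl-/- cells. Of the exonic bases of Sgsh, 21.6% are shared with Card14 on the opposite strand, and since reads were counted without strand the genes cannot be fully told apart. Card14 was at 24.2 to 61.0 scaled FPKM and was likewise lower after KLA, at 61.0, 31.6, 39.0 and 24.2 in WT cells. The other 4 members that share at least 10% of their exonic bases with another gene are Ctsa, Ctsb, Arsa and Arsb.

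Few members behaved so: in 2 of 50 (Sgsh and Manba) all 6 libraries after KLA were below both 0 h libraries, beside 10.6% of all genes analysed. In 4 of 50 they were above (Ctsk, Neu1, Tfeb and Tfe3), beside 8.9% of all genes. Manba, a mannosidase, was at 250, 244, 217 and 167 in WT and 245, 218, 234 and 177 in Arntl-/- cells, and Neu1, a sialidase, at 331, 332, 409 and 533 and at 323, 349, 386 and 492.

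By 24 h the members were close to their 0 h levels. The median log2 change was 0.14 in WT, with 2 at least 1.5-fold higher (Ctsk and Atp6v0d2) and 1 lower (Sgsh), beside 7.96% higher and 7.96% lower of all genes. In Arntl-/- cells it was 0.13, with 0 higher and 0 lower, beside 7.38% and 8.69%. Of individual values, Ctsc was higher (941 to 1159 in WT and 835 to 1095 in Arntl-/- cells), and Arsb lower (85.1 to 61.7 and 88.4 to 69.1).

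At 48 h most lysosomal genes read higher than at 0 h, 44 of 50 in WT and 41 of 50 in Arntl-/- cells beside 50.2% and 49.3% of all genes. After the correction for level 35 and 27 of 50 were higher, with medians of all genes at 0.0031 and -0.00039. The size of this excess depended on whether level was taken into account. In WT cells 18 of 50 were at least 1.5-fold higher than at 0 h and 1 was lower, beside 12.5% and 14.4% of all genes analysed, and the median log2 change was 0.44 against 0.00 for all genes. In Arntl-/- cells 23 were higher and 1 lower, beside 14.7% and 16.7%, with a median of 0.47 against -0.01. The same 17 members were higher in both, 94.4% of the WT list and 73.9% of the Arntl-/- list. They were 7 proteases (Ctsb, Ctsd, Ctsh, Ctsk, Ctsl, Ctss and Ctsz), the glycosidases Gaa, Glb1 and Neu1, Npc2 and Psap, the membrane proteins Lamp2, Cd63, Laptm5 and Gpnmb, and Atp6v0d2. Tfeb passed 1.5-fold in WT alone, and Ctsa, Grn, Hexa, Lamp1, Lipa and Naglu in Arntl-/- cells alone, and the difference between the genotypes was not tested. Ctsa, for example, differed by a log2 of 0.51 in WT and 0.72 in Arntl-/- cells from 0 h. With the values as deposited 13 members in WT and 14 in Arntl-/- cells were 1.5-fold higher, and of all genes past 1.5-fold 30.9% and 28.8% were higher, in place of 46.4% and 46.9%. With upper-quartile factors the share was 57.2% in Arntl-/- cells.

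In 39 of 50 members both 48 h libraries lay above both 0 h libraries, and in 6 of 50 below (Ids, Manba, Sgsh, Arsb, Galc and Cln3). Of all genes analysed, 33.8% lay above and 33.8% below. In the top 10% by level the share above was 71.9%. The share of all 50 members was 78%, but 23 of them lie outside that class. Of the 27 members within it, all but Ctsc lay above.

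Part of the 48 h change was shared by abundant genes in general. The top 10% had a median of 0.32 in WT and 0.47 in Arntl-/- cells, and 22.2% and 38.5% of it was at least 1.5-fold higher. The 48 h libraries were the shallowest of each genotype, as given above. Against genes of like level the median member was higher by 0.21 in WT and 0.18 in Arntl-/- cells, with 36 and 31 of 50 above the median of their level class. After the correction for level the medians were 0.13 and 0.04, and 5 members in WT (Ctsk, Gaa, Glb1, Atp6v0d2 and Tfeb) and 4 of these in Arntl-/- cells (all but Tfeb) stayed at least 1.5-fold higher. Of all genes analysed, 12.2% and 13.4% were 1.5-fold higher after the same correction, so that the members' counts, 5 and 4 of 50, no longer stood above that background. The order of the members was alike in the genotypes: 30 were above genes of like level in both, 13 below in both and 7 on opposite sides, with a Spearman coefficient of 0.92 over the 50 members, which share the depth of their libraries.

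**Figure D4:**
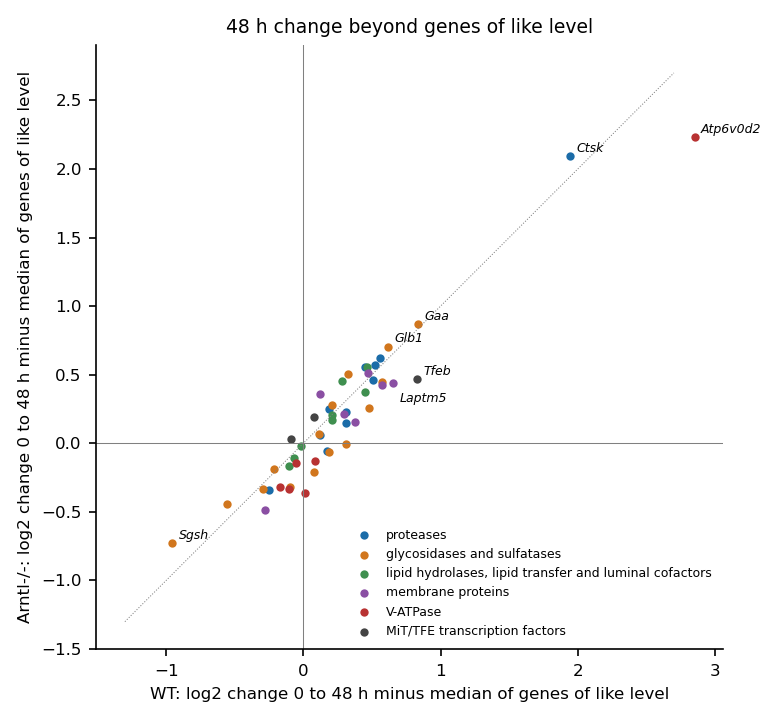
log2 change from 0 to 48 h minus the median of genes of like level, WT on the horizontal and Arntl-/- on the vertical axis, for the 50 genes coloured by role, with a dotted line of equal change and names where either value is at least 0.65 from 0. Members lie along the line, with Atp6v0d2 and Ctsk far up, Gaa, Glb1, Tfeb and Laptm5 next, and Sgsh lowest.

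By role, the median change at 48 h was 0.62 in WT and 0.83 in Arntl-/- cells for the 7 membrane proteins, 0.64 and 0.72 for the 11 proteases and 0.39 and 0.50 for the 8 lipid genes. After the correction for level these medians were 0.31 and 0.10 for the membrane proteins, 0.14 and 0.08 for the proteases and 0.02 and -0.06 for the lipid genes, the last of which thus turned in Arntl-/- cells. Glycosidases and sulfatases were divided: 11 of 15 were higher in WT and 9 in Arntl-/- cells, with medians of 0.40 and 0.23, or 0.18 and 0.00 after the correction. Gaa, which degrades glycogen, was at 231, 250, 260 and 429 in WT and 239, 236, 290 and 448 in Arntl-/- cells. Glb1, the beta-galactosidase, was at 345, 335, 402 and 571 and at 346, 325, 412 and 631. In both genes the 48 h value stood clear of the 3 earlier ones.

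Among the proteases, Ctsk had the largest change. It encodes cathepsin K, the collagen-cleaving protease known from osteoclasts, and lies on chromosome 3 of mm9 (95303132 to 95313309). It was at 38.4, 39.8, 67.9 and 138 in WT cells against 36.0, 42.3, 50.3 and 140 in Arntl-/- cells. The 48 h value was 3.60-fold the 0 h value in WT (95% counting interval 2.91 to 4.47) and 3.87-fold in Arntl-/- cells (3.20 to 4.70). Ctss, which trims the invariant chain of MHC class II, was at 2806, 1857, 3697 and 5057 in WT and 2393, 2652, 3189 and 4906 in Arntl-/- cells, log2 changes of 0.85 and 1.04 at 48 h. Ctsd was at 5183, 3451, 5838 and 9214 and at 4134, 4913, 4911 and 7882, log2 changes of 0.83 and 0.93.

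Npc2, which hands cholesterol to Npc1, was at 745, 565, 985 and 1289 in WT and 680, 825, 890 and 1380 in Arntl-/- cells, 0.79 and 1.02 in log2 at 48 h. Npc1, its partner in the membrane, was at 441, 419, 474 and 470 and at 451, 456, 433 and 499, changes of 0.09 and 0.14.

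The membrane proteins show the group's course. Lamp1, the main glycoprotein of the lysosomal membrane, was at 2053, 1295, 2305 and 2791 in WT and 1646, 1928, 1961 and 2918 in Arntl-/- cells. Laptm5 was at 2960, 1964, 3597 and 5841 in WT and 2326, 2783, 3088 and 4357 in Arntl-/- cells, and Gpnmb, a glycoprotein of macrophage lysosomes, at 2501, 1737, 2859 and 4655 and at 2262, 2464, 2604 and 4191. In all 3 the 48 h library was the highest of each genotype, and the 6 h library was the lowest of the WT series only. The other courses belonged to less abundant genes: Cln3, the product lost in a juvenile storage disease, was at 332, 347, 366 and 296 in WT and 405, 378, 363 and 324 in Arntl-/- cells, lowest at 48 h in both. Mcoln1, the calcium channel of lysosomes, was at 270, 280, 295 and 364 and at 303, 249.5, 310 and 346.

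Among the lipid genes and cofactors, Psap was at 4642, 3038, 4992 and 7928 in WT and 3812, 4074, 4138 and 6823 in Arntl-/- cells. Grn, the precursor of the granulins, was at 2615, 1742, 2923 and 3776 and at 2108, 2319, 2389 and 3370. Both were highest at 48 h. Smpd1, the acid sphingomyelinase, had little range, at 76.3, 87.0, 91.2 and 87.0 in WT and 79.1, 71.9, 75.2 and 97.5 in Arntl-/- cells, and Galc, which acts on galactosylceramide, was at 187, 181, 202 and 171 and at 191, 173, 206 and 167.

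Among the glycosidases and sulfatases, Hexa, a subunit of the hexosaminidases, was at 1457, 988, 1569 and 2110 in WT and 1197, 1390, 1400 and 2011 in Arntl-/- cells. Ids, the iduronate sulfatase, had its lowest value at 48 h in both genotypes, at 130, 108, 119 and 101 in WT and 115, 119, 109 and 84.7 in Arntl-/- cells. Of the enzymes of heparan sulfate breakdown, those named here thus had unlike courses. Sgsh and Ids were lower at 48 h, Idua was at 149 after 137 in WT and 158 after 176 in Arntl-/- cells, and Naglu was higher, at 484 after 357 and at 509 after 319.

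Atp6v0d2 had the largest change of all members from 0 to 48 h, 6.71-fold in WT (95% counting interval 4.83 to 9.51) and 4.22-fold in Arntl-/- cells (3.105 to 5.77). Its values and those of Ctsk, both known from osteoclasts, were set beside the 6 osteoclast markers. Calcr, Oscar and Ocstamp were at 0 to 1.99 in all libraries and Dcstamp at 0 to 4.39, whereas Nfatc1 was at 82.5 to 108 and Acp5, which macrophages also express, was at 277, 239, 308 and 465 in WT and 195, 240, 303 and 378 in Arntl-/- cells. The stromal markers moved in part with Ctsk, which fibroblasts also express: their sum was 464, 555, 618 and 1167 in WT and 343, 375, 397 and 706 in Arntl-/- cells, highest at 48 h in both and lower in Arntl-/- cells at every time. The 8 markers did not all follow their sum. Dcn was at 16.8, 42.0, 29.3 and 62.3 in WT and 39.1, 34.6, 37.0 and 91.3 in Arntl-/- cells, higher in Arntl-/- cells at 0, 24 and 48 h. Lum, at low levels, was higher in Arntl-/- cells at 0, 6 and 48 h. Postn was at 36.9 at 0 h and 35.1 at 48 h in Arntl-/- cells. The part of stromal RNA in the Ctsk values was not tested.

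**Figure D5:**
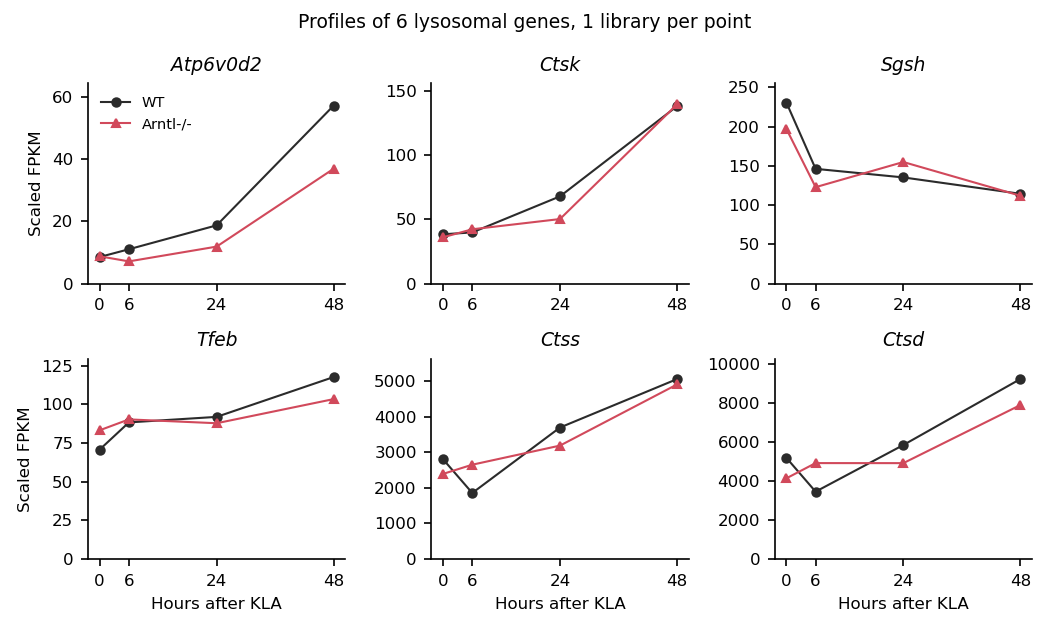
Scaled FPKM (vertical axis, from 0) of 6 lysosomal genes over the hours after KLA, WT in black circles and Arntl-/- in red triangles, 1 library per point. Atp6v0d2 parts from 6 h on (57.1 against 36.9 at 48 h), Ctsk ends level (138 against 140), and Sgsh is lower after KLA. Before any correction for level, Ctss and Ctsd dip at 6 h in WT only, a difference that was not tested.

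None of the other V-ATPase members passed 1.5-fold between the genotypes or from 0 h to a later time. Atp6v1a, the catalytic subunit, was at 1024, 799, 1127 and 1363 in WT and 965, 980, 1042 and 1221 in Arntl-/- cells, and Atp6v1b2, its partner in the hexamer that splits ATP, at 1149, 905, 1139 and 1278 and at 1087, 1156, 1039 and 1205. Atp6v1h, a regulatory subunit, was at 381, 379, 376 and 415 in WT and 395, 421, 304 and 344 in Arntl-/- cells. Atp6ap1, an accessory subunit, was at 991, 780, 1080 and 1195 and at 896, 1007, 1012 and 1119. At 48 h the 6 members had a median log2 change of 0.25 in WT and 0.23 in Arntl-/- cells, which was -0.02 and -0.23 against genes of like level (proteases 0.31 and 0.25, membrane proteins 0.38 and 0.36).

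Further genes of the pathway were counted from lists chosen for their known roles, with earlier results of these data known. Their counts at 1.5-fold stand beside the shares of all genes given above. Between the genotypes these were 2.64%, 1.93%, 3.09% and 5.08% higher and 1.58%, 1.87%, 2.19% and 4.9% lower in order of time, so that a count of 0 or 1 in a list of this length is near the background. At 48 h against 0 h they were 12.5% higher and 14.4% lower in WT and 14.7% and 16.7% in Arntl-/- cells, with 12.2% and 13.4% higher after the correction for level. Of 31 other lysosomal hydrolases and luminal proteins analysed, 0 differed at least 1.5-fold between the genotypes at any time. At 48 h against 0 h, 8 were higher and 0 lower in WT, and 10 were higher and 1 lower in Arntl-/- cells. The 1 lower gene was the hyaluronidase Hyal1. After the correction for level 4 were higher in WT and 6 in Arntl-/- cells. The phospholipase D family member Pld3 was at 570 in WT cells at 0 h and 1282 at 48 h, and at 523 and 1244 in Arntl-/- cells. Of 13 other V-ATPase subunits, 1 was higher in Arntl-/- cells at 24 h and 48 h, Atp6v1g2, which was at 40.2, 39.7, 20.4 and 28.7 in WT and 39.1, 29.1, 46.1 and 46.5 in Arntl-/- cells. At 48 h against 0 h, 1 of the 13 was higher and 1 lower in WT, and 2 were higher and 1 lower in Arntl-/- cells. All are subunits of the membrane sector: Atp6v0a1 was lower in both genotypes, at 287 after 471 in WT and at 244 after 467 in Arntl-/- cells. Atp6v0c was higher in both, at 3650 after 2321 and at 3242 after 1995, and Atp6v0e passed in Arntl-/- cells only, at 1367 after 892. After the correction for level 0 of the 13 were 1.5-fold higher in either genotype. Of 22 other membrane proteins, Slc38a9 was higher and Tmem192 lower in Arntl-/- cells at 0 h and Mfsd8 lower at 48 h, each at 1 time only. At 48 h against 0 h, 2 of the 22 were higher in WT and 3 in Arntl-/- cells, shares below those of all genes, with 0 lower in either (1 and 2 higher after the correction). Among them was the metal transporter Slc11a1, from 1012 to 1651 and from 848 to 1487.

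Of 13 genes for the mannose 6-phosphate tag and for sorting, 0 differed 1.5-fold between genotypes, 1 was lower at 48 h in Arntl-/- cells (Gnptab), and 1, the sorting receptor Sort1, was higher at 48 h in both genotypes, at 102 after 53.0 in WT and at 140 after 50.8 in Arntl-/- cells. Of 20 genes of mTORC1, Rag-Ragulator, folliculin and calcineurin, which control TFEB, 0 differed 1.5-fold between genotypes or between 0 and 48 h in either, and 1 was lower at 48 h in Arntl-/- cells after the correction. Of 25 genes for autophagy and lysosome fusion, Map1lc3a was lower at 0 h and higher at 48 h in Arntl-/- cells and Gabarap higher at 6 h. Of the 25, 4 were higher at 48 h in WT, near the 12.5% of all genes, and 6 in Arntl-/- cells, beside 14.7%, with 0 lower in either (3 and 4 higher after the correction). Among them was the cargo receptor Sqstm1, from 1687 to 3036 and from 1496 to 2762.

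Among the cystatins, inhibitors of cathepsins, 4 of 9 listed were analysed, and in order of time 1, 2, 2 and 0 of them were at least 1.5-fold higher in Arntl-/- cells, beside 2.64%, 1.93%, 3.09% and 5.08% of all genes. After the correction for level the count at 6 h was 1. Cst7, cystatin F, was at 50.5, 86.9, 19.5 and 54.3 in WT cells against 114, 159, 70.9 and 58.8 in Arntl-/- cells, log2 ratios of 1.17, 0.87, 1.86 and 0.11. Stfa3 was at 785, 557, 522 and 1705 and at 822, 1017, 954 and 2098, but it belongs to a family of near-identical genes between which reads may be split. Of the neutrophil markers, S100a9 was at 164, 207, 148 and 10.1 in WT and at 403, 428, 371 and 9.00 in Arntl-/- cells. S100a8 had another course, at 308, 282, 429 and 910 in WT and 401, 514, 411 and 905 in Arntl-/- cells. Ngp was at 37.2, 33.3, 17.1 and 0 in WT and 83.4, 55.2, 38.4 and 2.696 in Arntl-/- cells, and Ltf at 18.9, 7.67, 17.5 and 0 and at 42.4, 18.4, 25.4 and 0. Of the 8 measured, Mpo was at 0 in all libraries and Elane in all but 1. Camp, from 0 to 42 reads, was at 0, 14.5, 10.1 and 7.58 in WT and 12.4, 17.9, 13.5 and 26.3 in Arntl-/- cells. Retnlg, from 0 to 8 reads, was at 0, 2.04, 0 and 0 and at 4.25, 0, 0 and 0. Like Cst7, S100a9, Ngp and Ltf were higher in Arntl-/- cells at 0, 6 and 24 h and close between the genotypes at 48 h. S100a8, Camp and Retnlg did not follow this course, and Stfa3 was highest at 48 h. The part of neutrophil RNA in the cystatin values was not tested.

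Members with and without CACGTG in the promoter were set side by side. The 15 with the motif had median log2 ratios of Arntl-/- to WT of -0.09, 0.17, -0.01 and 0.00 at the 4 times, and the 27 without it -0.13, 0.24, -0.12 and -0.07. Against genes of like level these were 0.08, -0.05, 0.04 and 0.06 with the motif and 0.02, 0.03, -0.04 and -0.04 without it. The change from 0 to 48 h had medians of 0.44 and 0.52 with the motif and 0.53 and 0.54 without it, in WT and Arntl-/- cells. The members with the motif were the less abundant ones, with a median level of 598 against 920. The 15 members with the motif were Ctsa, Ctsd, Ctsl, Lgmn, Gaa, Gla, Glb1, Naglu, Sgsh, Arsa, Lamp1, Mcoln1, Cln3, Atp6v0d1 and Atp6v1a.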

How the data were processed

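PolyA RNA-seq of 8 conditions was analysed, with 1 library each. The authors aligned paired-end reads to mm9 with STAR and counted them with HOMER on RefSeq exons, on both strands, with a header setting of at most 3 tags per position and 1 transcript kept per gene. The deposited FPKM are scaled to 10000000 reads per library and divided by exon length in kb. A stray fragment (1 line) was left out, and 4 value columns of other times were not used. FPKM times length fell on whole reads for 100% of low values (tolerance 0.02 reads beyond the rounding of the file), which gave the reads behind each value.

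Each library's FPKM were divided by its median-of-ratios factor, and log2 was taken after adding 0.1. Genes with a mean of at least 100 scaled reads were analysed, and differences were counted at 1.5-fold. Exact binomial intervals at the 95% level cover counting error only. No test was made. The lists, the members and the rules were chosen with earlier results of these data known. Members were named if they passed 1.5-fold between genotypes in the same direction at 2 or more times, 2-fold from 0 to 24 or 48 h, belonged to the V-ATPase or the MiT/TFE factors, or had one of the 3 highest or 3 lowest mean ratios. Genes of the other lists were named if they passed 1.5-fold between genotypes at 2 or more times in the same direction, with at least 20 reads in every library. Other names were given as group examples or where a count was 5 or fewer, and were chosen after their values were seen. Promoters were matched by symbol to RefSeq (GRCm38.p6), and exon overlap was read from GENCODE vM1 on the files' build. The steps were tested on simulated data. The work was done in Python 3.11.15 with statsmodels 0.14.6, scipy 1.17.1, pandas 2.3.3, matplotlib 3.10.9 and numpy 2.4.6.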

Additional observations from a re-analysis of the deposited data

How the results depend on the processing

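Each condition had 1 library, so that no replicate could be left out. A fit of genotype with time as a block, in which the 4 times would stand in for replicates, was not made. Pseudocounts of 1 and 0.01 and upper-quartile factors left all 14 median log2 differences of the members within their 95% order-statistic interval. That interval is taken over the 50 members, which share the libraries of a comparison, and does not measure the uncertainty of the comparison. Both other filters kept all 50 members, so the medians of the members could not change under them. The share of members with CACGTG was 33.3% when only the 250 bases before the start site were searched.

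The correction for level moved 12 of the 14. Between the genotypes it gave medians of 0.061 at 0 h, -0.070 at 6 h and 0.049 at 24 h. In WT cells it gave 0.054 at 6 h, 0.051 at 24 h and 0.13 at 48 h against 0 h, -0.0046 at 24 against 6 h and 0.088 at 48 against 24 h. In Arntl-/- cells it gave -0.11, -0.025 and 0.040 against 0 h and 0.013 at 48 against 24 h. It raised the members that were higher at 6 h in WT from 13 to 35 of 50, where the median of all genes was -0.0084 after it. Among those it turned were Ctss and Ctsz, to 0.056 and 0.013. It lowered the members at least 1.5-fold higher at 48 h from 18 to 5 in WT cells and to 4 of 23 in Arntl-/- cells, beside 12.2% and 13.4% of all genes, and those lower at 6 h in WT from 10 to 1, beside 2.15%. The values as deposited moved the log2 median of all genes by -0.19 to 0.16 over the comparisons and gave member medians of 0.065 at 6 h and -0.058 at 24 h between genotypes and 0.064 at 24 against 0 h in Arntl-/- cells. With them 13 and 14 members were higher at 48 h in WT and Arntl-/- cells, and 0 were lower at 6 h in WT. At 2-fold, 2 members in WT and 5 in Arntl-/- cells were higher at 48 h, beside 4.48% and 5.35% of all genes. Atp6v0d2 stayed at least 1.5-fold lower in Arntl-/- cells at 24 and 48 h under all the alternatives run at that fold, and at 6 h passed the line in neither the correction for level nor with a pseudocount of 1. The cause of these shifts was not tested.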
